A study of Homo sapiens with 6 samples.

Results

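Wnt ligands and the genes of Wnt secretion were followed in BL2, a human line established from a Burkitt lymphoma (a B cell cancer), with LEF1 lowered by siRNA. The members were every probe set that the platform annotation assigned to WNT3, WNT5A, WNT5B, WNT10A, WNT16, WLS or PORCN alone. This gave 12 of the 54613 tested probe sets, for 5 of the 7 genes and of the 19775 genes with a probe set of their own on the array. WNT5B and WLS had 3 probe sets each, and WNT5A, WNT10A and WNT16 had 2 each. The 3 probe sets named for WNT3 also carry the name of a non-coding RNA gene, LOC101929777, so they were not used, and no probe set was named for PORCN here. WNT3 and PORCN were therefore not analysed.

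The cells were grown in complete RPMI and electroporated with scrambled siRNA (3 arrays) or with LEF1 siRNA, a pool of 4 siRNAs per the series' design text (3 arrays). The labels give 3 batches, each with 1 scrambled siRNA array and 1 LEF1 siRNA array, and the design text calls the arrays biological replicates. How long after electroporation the cells were harvested is not given in the sources used here. All groups are 1 cell line, both received siRNA, and LEF1 was lowered rather than deleted. Expression is given as log2 values per probe set, and a log2 difference is LEF1 siRNA minus scrambled siRNA.

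Wnt ligands are secreted glycoproteins that carry a lipid needed to bind Frizzled receptors. PORCN attaches that lipid in the endoplasmic reticulum, and WLS carries the finished ligand to the cell surface and is recycled by the retromer. Ligands such as WNT3, WNT10A and, in most settings, WNT16 can signal through beta-catenin and its DNA-binding partners, among them LEF1, whereas WNT5A and WNT5B are best known for beta-catenin-independent signalling through receptors such as ROR1, ROR2 and RYK. In B-lineage cells Wnt ligands can come from the cells themselves or from stroma, and in these cultures only the line itself was plated per the labels.

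LEF1 was checked first. Its brightest probe set read 11.09, 10.58 and 11.45 in batches 1, 2 and 3 with scrambled siRNA and 8.21, 8.09 and 8.67 after the knockdown, or 15.2% of the control signal (limma adjusted p = 0.0213 without block). Its other probe sets kept 28.0% and 81.5%. The medians of the arrays ran from 6.89 to 6.96. The 6 measured B cell markers averaged between 10.34 and 13.55 with scrambled siRNA, while the 3 T cell markers lay between 6.69 and 7.09 and the 3 myeloid markers between 6.39 and 6.80, around or below the median of all values of 6.91.

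The ligand that differed most between the groups was WNT5A, and the upstream regions of its annotated starts are shown because the siRNA target, LEF1, is a DNA-binding factor. RefSeq lists starts for WNT5A in windows that lie apart on the same strand of GRCh38.p14. The 250 bases before each start are printed 5′ to 3′ with CG dinucleotides in capitals, followed by those of WNT10A, the ligand with the brightest member probe set.
WNT5A, chr3:55487307-55487556, minus strand: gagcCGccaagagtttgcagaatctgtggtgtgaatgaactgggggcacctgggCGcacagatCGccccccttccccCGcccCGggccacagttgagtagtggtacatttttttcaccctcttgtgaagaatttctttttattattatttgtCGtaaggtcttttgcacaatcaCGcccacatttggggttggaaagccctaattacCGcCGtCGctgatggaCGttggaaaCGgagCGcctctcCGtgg
WNT5A, chr3:55481399-55481648, minus strand: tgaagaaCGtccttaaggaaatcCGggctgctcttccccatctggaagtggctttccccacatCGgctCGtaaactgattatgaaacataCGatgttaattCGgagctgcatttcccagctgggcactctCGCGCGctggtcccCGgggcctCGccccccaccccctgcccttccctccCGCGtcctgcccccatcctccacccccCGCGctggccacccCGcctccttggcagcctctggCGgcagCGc
WNT10A, chr2:218880602-218880851, plus strand: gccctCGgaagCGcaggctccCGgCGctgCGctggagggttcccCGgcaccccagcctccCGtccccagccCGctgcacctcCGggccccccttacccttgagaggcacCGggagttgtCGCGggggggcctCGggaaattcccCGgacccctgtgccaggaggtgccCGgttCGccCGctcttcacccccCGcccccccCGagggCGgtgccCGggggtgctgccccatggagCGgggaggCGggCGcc

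These windows hold 14, 18 and 24 CG dinucleotides, against a median of 11 over 35116 RefSeq windows of the same length. Of all windows, 55.2%, 63.2% and 76.3% hold fewer, so the 2 of WNT5A are not unusual. The letters of the TCF/LEF motif were searched on both strands as CTTTGAT, as CTTTGAA and as CTTTGA, the shorter form that both contain. None of them occurs in the 8 windows listed for the 5 measured genes. Over all windows, CTTTGAT occurs in 2.26%, CTTTGAA in 3.80% and CTTTGA in 11.2%. The search covers only these letters in these windows.

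WNT5A read higher with LEF1 siRNA in every batch and at both of its probe sets. It encodes a ligand of beta-catenin-independent signalling. At the brighter probe set the scrambled siRNA arrays read 8.24, 7.92 and 8.28 in batches 1, 2 and 3, and the LEF1 siRNA arrays read 8.48, 8.56 and 8.57. The lowest LEF1 siRNA array lay above the highest scrambled siRNA array, and the scrambled array of batch 2 was the lowest of all. The group means were 8.15 ± 0.19 (SD, n = 3) and 8.54 ± 0.05, a log2 difference of 0.39 or 1.31-fold. The batch differences were 0.24, 0.64 and 0.30. In culture RNA, a change in the level per cell and a change in the share of cells that express a gene cannot be told apart.

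The dimmer WNT5A probe set read 7.63, 7.64 and 7.84 with scrambled siRNA and 7.91, 8.22 and 7.96 with LEF1 siRNA. The groups again did not overlap, with batch 2 showing the widest gap. Its means of 7.71 ± 0.12 (SD, n = 3) and 8.03 ± 0.17 differed by 0.32, or 1.25-fold, with batch differences of 0.28, 0.58 and 0.12. Both probe sets read the same gene from the same RNA, so they are not independent replicates of the change.

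Whether WNT5A passed the test depended on the fit. Without block, neither probe set passed (limma adjusted p = 0.249 for the brighter and 0.378 for the dimmer), although their unadjusted 95% intervals, 0.17 to 0.61 and 0.10 to 0.55, lay above 0. Fitted with the labelled batch as block, both rose (limma adjusted p = 0.00566 and 0.0201), with intervals of 0.23 to 0.55 and 0.16 to 0.49. The SDs of their batch differences were 0.22 and 0.24, above the median of 0.09 over all probe sets. With 2 residual and 12.0 prior degrees of freedom, the blocked fit takes most of its variance from all probe sets. Its intervals and p therefore reflect little of the spread of WNT5A itself between batches. The exact two-sided permutation p over the arrays was 0.1 for each probe set, the smallest that 3 against 3 can give. That permutation ignores the batches. Changing the signs of the batch differences instead gave an exact p of 0.25 for each, the smallest that 3 batches can give. The blocked calls were lost when batch 2 was left out, at differences of 0.27 (limma adjusted p = 0.0631) and 0.20 (0.228), and the dimmer probe set also missed the threshold under scaling to the poly-A spike-ins (difference 0.20, limma adjusted p = 0.0703).

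Counted over the members, 0 of 12 probe sets passed limma's test without block, where 0.0183% of all probe sets did, and 2 of 12 had an unadjusted p under 0.05, against 7.84% of all. With batch as block 2 of 12 passed, both of WNT5A and both higher, beside 6.09% of all probe sets in either direction and 4.58% higher. Probe sets above the median level were called more often, at 11.7%, than those at or below it, at 0.495%, and 7 members lay above the median. The groups did not overlap at 3 of 12 member probe sets, against 12.5% of all, and those of a WLS probe set were barely apart. The median difference of the 12 was 0.031, beside 0.011 for all probe sets. The counts rest on few probe sets, several of which read 1 gene.

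**Figure D1:**
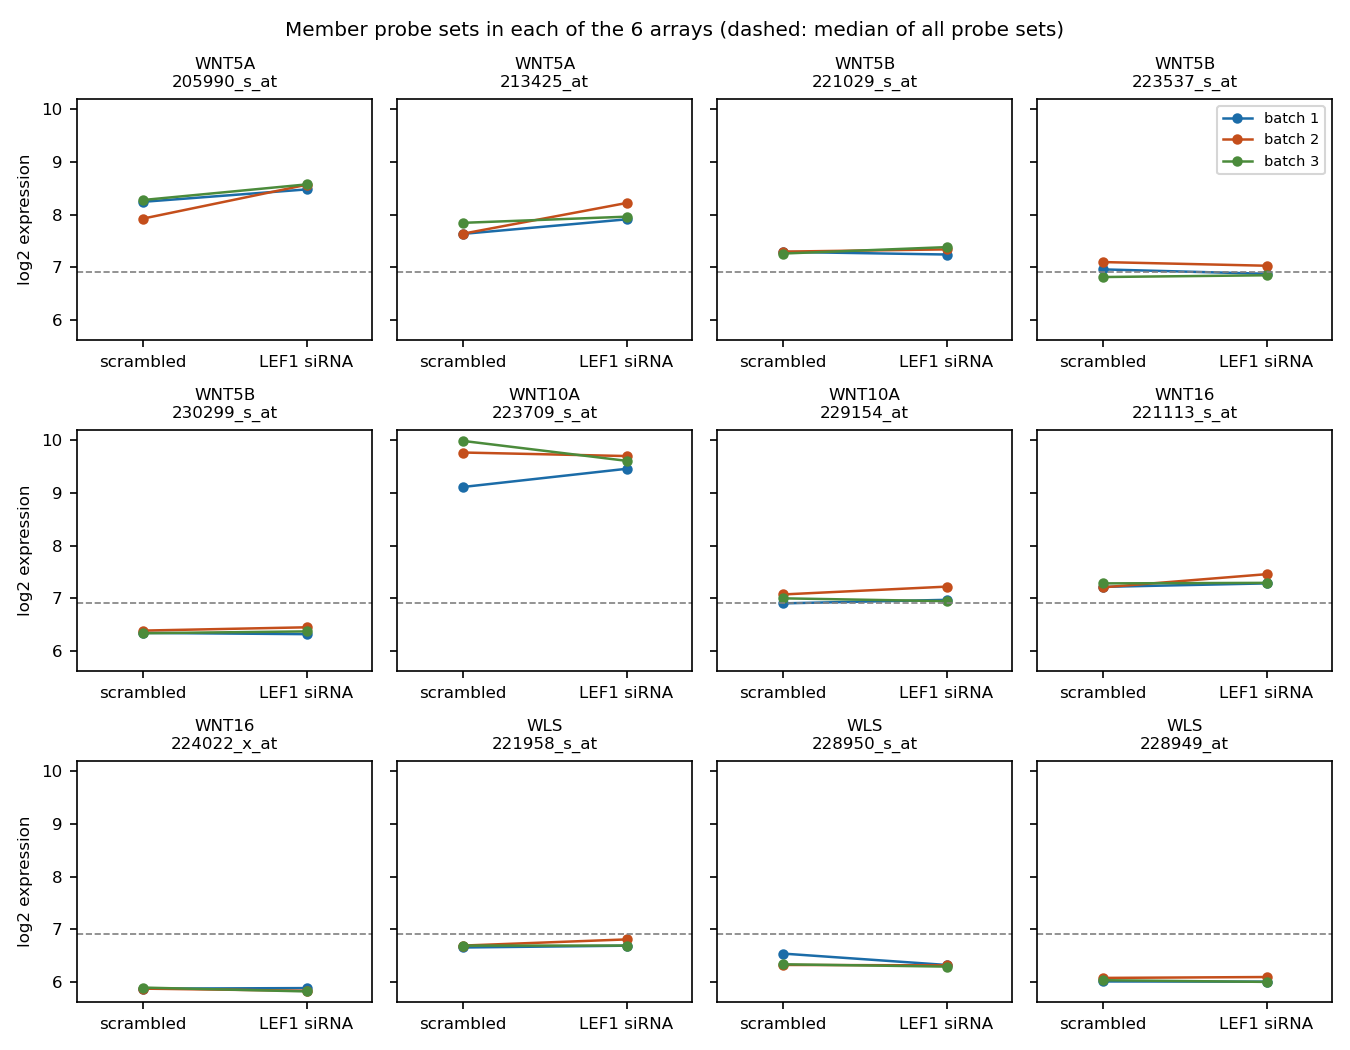
Log2 expression (y axis) of the 12 member probe sets with scrambled and LEF1 siRNA (x axis), with 1 point per array, lines joining the arrays of a batch and the dashed line at the median of all probe sets, 6.91. Both WNT5A probe sets are higher with LEF1 siRNA in all 3 batches, and the brighter WNT10A probe set spreads from 9.11 to 9.98.

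WNT5B, the closest relative of WNT5A among the ligands, showed no such difference. Its brightest probe set read 7.29, 7.30 and 7.26 with scrambled siRNA and 7.24, 7.34 and 7.38 with LEF1 siRNA. The groups overlapped, and the difference was 0.04 (interval with batch as block -0.09 to 0.16, limma adjusted p = 0.843). The second read 6.96, 7.10 and 6.82, then 6.88, 7.03 and 6.85, and differed by -0.04. The third stayed between 6.32 and 6.45 in all 6 arrays, below the median of all values, and differed by 0.02. Signals that low can be mostly background, so a change of WNT5B below detection cannot be seen there. The first and second probe sets lie not far above that median, so this limit may hold for them too.

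WNT10A, a ligand that signals through beta-catenin, had a probe set far above background, which varied widely between cultures and in no common direction. It read 9.11, 9.76 and 9.98 in batches 1, 2 and 3 with scrambled siRNA, and 9.45, 9.70 and 9.61 with LEF1 siRNA. The lowest and the highest of the 6 values were both scrambled siRNA arrays. The means of 9.62 ± 0.45 (SD, n = 3) and 9.58 ± 0.12 differed by -0.03, while the batch differences were 0.34, -0.07 and -0.38. Of all probe sets, 0.139% had a larger SD over the scrambled siRNA arrays, and 0.152% a larger SD of the batch differences than the 0.36 found here. WNT10A did not pass in either fit (limma adjusted p = 0.991 without block and 0.927 with it). The interval with batch as block, -0.24 to 0.17, was the widest of the 12, and the batch differences of 0.34 and -0.38 lay outside it. Without block the interval was -0.49 to 0.42. The second WNT10A probe set read 6.91, 7.08 and 7.0 with scrambled siRNA and 6.97, 7.22 and 6.95 with LEF1 siRNA, near the median of all values, and did not follow the first in batch 3 of the scrambled siRNA arrays.

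WNT16, a ligand studied in bone and in lymphoid leukaemia cells, read 7.22, 7.21 and 7.29 at its brighter probe set with scrambled siRNA, and 7.28, 7.46 and 7.29 with LEF1 siRNA. The LEF1 siRNA array of batch 2 stood above the other 5, which overlapped. The difference of 0.11 was positive in 3 of 3 batches, at 0.07, 0.25 and 0.0098, and did not pass (interval with batch as block -0.02 to 0.24, limma adjusted p = 0.430). It turned to -0.01 under poly-A spike-in scaling. The other WNT16 probe set lay between 5.83 and 5.90, near the floor of the values, and differed by -0.03.

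WLS, the carrier that takes Wnt ligands to the cell surface, was read by 3 probe sets that all lay below the median of all values. The brightest read 6.66, 6.69 and 6.69 with scrambled siRNA and 6.69, 6.81 and 6.69 with LEF1 siRNA. It differed by 0.05 (limma adjusted p = 0.766 with batch as block). The second read 6.54, 6.33 and 6.34 with scrambled siRNA and 6.33, 6.32 and 6.30 with LEF1 siRNA. The groups were barely apart, with the lowest scrambled siRNA array at 6.3281 and the highest LEF1 siRNA array at 6.3276. This probe set was lower in 3 of 3 batches, but the batch differences were -0.22, -0.0081 and -0.04, so batch 1 carried most of the mean of -0.09 (limma adjusted p = 0.538 with batch as block). Under poly-A spike-in scaling with batch as block it passed as lower, at -0.21 (limma adjusted p = 0.0397). The third stayed between 6.01 and 6.10 in all arrays. WLS thus gave no clear signal on these arrays, which does not show that the carrier is absent from BL2 cells.

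**Figure D2:**
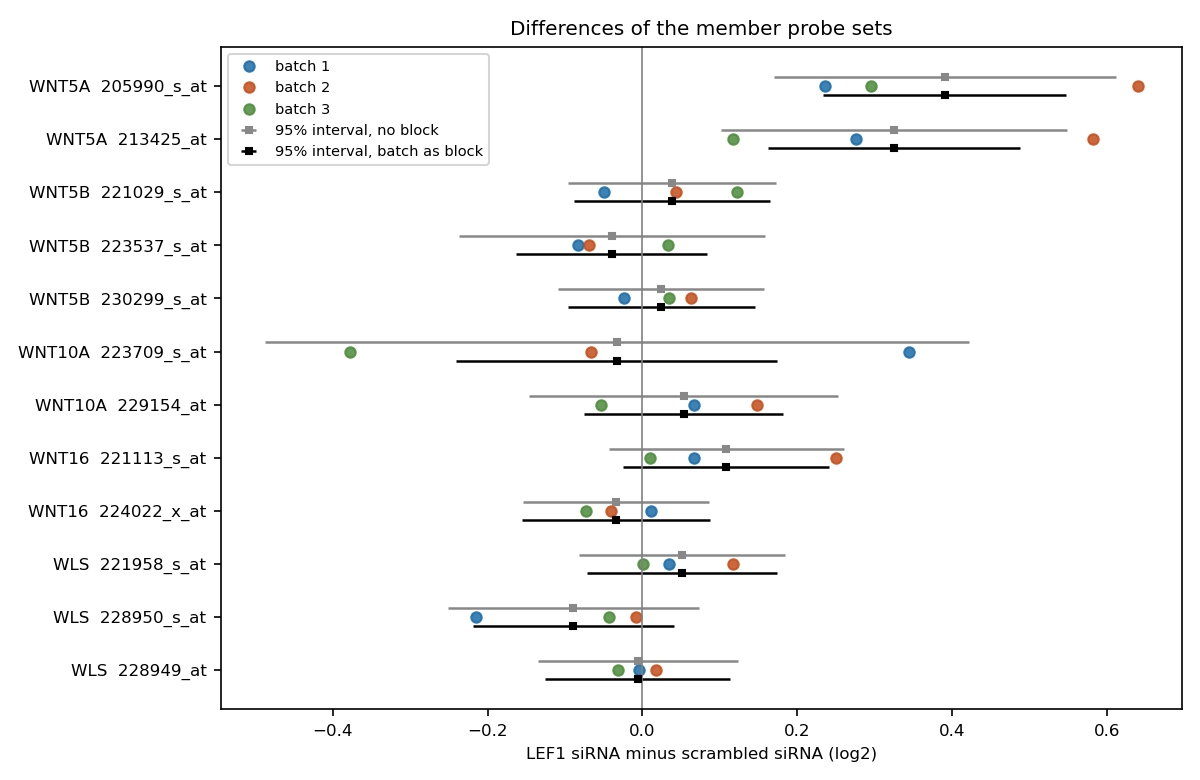
Log2 difference, LEF1 siRNA minus scrambled siRNA (x axis), of each member probe set (y axis), with coloured points for the 3 batches and squares with bars for the mean and its 95% limma interval without block (grey) and with batch as block (black). Both WNT5A intervals lie above 0 in both fits, and the 10 others cross 0, with batch differences of the brighter WNT10A probe set from -0.38 to 0.34.

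The 10 member probe sets of genes other than WNT5A differed by between -0.09 and 0.11, and their intervals with batch as block lay within -0.24 and 0.24. Without block the intervals were wider, within -0.49 and 0.42. WNT5A was set against the brightest probe set of each of the other 4 genes by the difference of their differences. WNT5A already had the largest difference of the members, so a positive mean excess over each of these genes was built in. It exceeded WNT5B by 0.35, WNT16 by 0.28 and WLS by 0.34, positive in 3 of 3 batches each (exact two-sided permutation p = 0.1, Benjamini-Hochberg p = 0.133 over 4 comparisons). Against WNT10A it was 0.42 with 2 of 3 batches positive (exact permutation p = 0.4, adjusted 0.4). A permutation of 3 against 3 arrays cannot give a p below 0.1, so it could not have reached 0.05. It also ignores the pairing by batch and takes no account of WNT5A having the largest difference, and the values are given as a description.

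**Figure D3:**
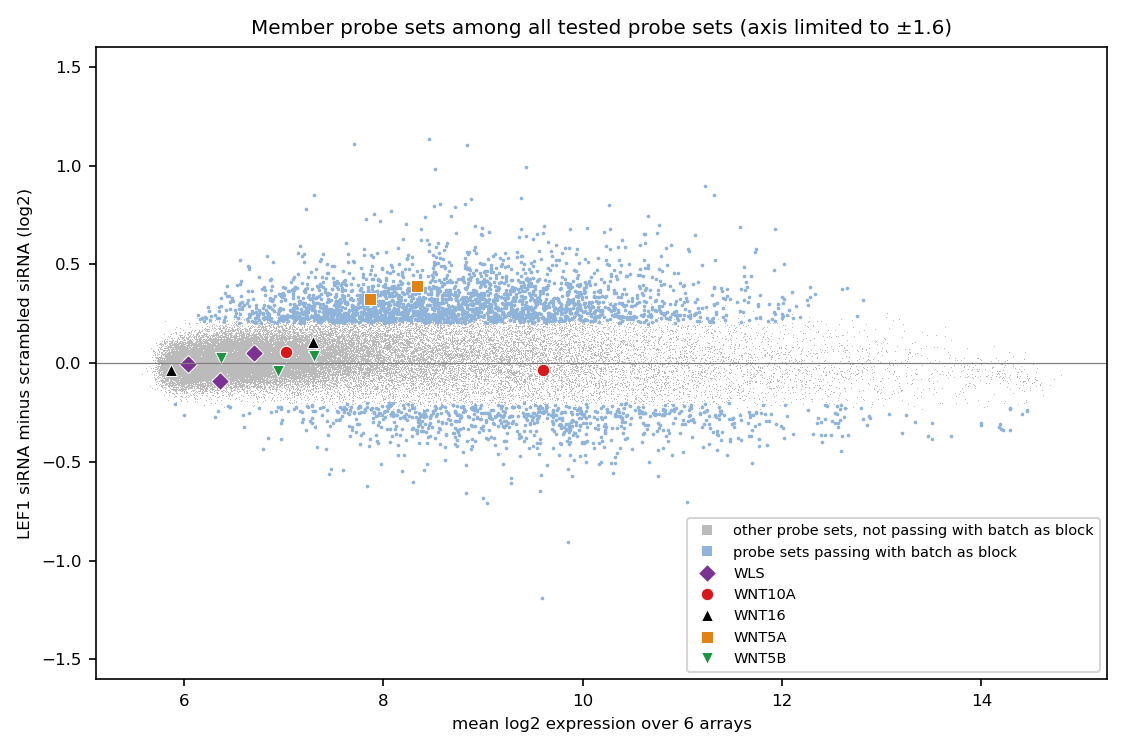
Log2 difference (y axis) against the mean log2 expression over 6 arrays (x axis) for all tested probe sets, with those passing with batch as block in blue and the members in larger symbols; LEF1 at its brighter probe sets lies outside the axis. WNT5A sits among the called probe sets at 8.34 and 7.87, and the 10 other member probe sets lie between -0.09 and 0.11, 5 of them below the median level.

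Genes with array profiles closest to WNT5A were named by the root mean square distance between 6 centred array values, among 12639 genes above the median level. For the brighter WNT5A probe set these were HPS3, a gene of lysosome-related organelle biogenesis, at a distance of 0.038, RNFT1 at 0.041 and DNAJC10, an endoplasmic reticulum co-chaperone gene, at 0.045, against a median distance of 0.227. For the dimmer one they were STRN3 at 0.040, BLZF1 at 0.049 and DNAJC12 at 0.058. No gene was named for both probe sets. All 6 genes were higher with LEF1 siRNA in 3 of 3 batches, by 0.28 to 0.41, which the likeness to WNT5A brings with it.

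The 13 other Wnt ligand genes with a probe set of their own gave 0 calls in either fit, out of 14 listed. With batch as block WNT10B had the smallest p, at 7.37 ± 0.24 (SD, n = 3) and 7.56 ± 0.15, a difference of 0.19 (limma adjusted p = 0.0973, and 0.836 without block). WNT2B differed by 0.13 without overlap of the groups (limma adjusted p = 0.219 with batch as block and 0.634 without). Their median level was 6.83, below the median of all values, and their median difference was 0.028. Leaving out batch 1 or batch 3 gave 1 call higher, and poly-A spike-in scaling 1 lower. Over genes, each by its brightest probe set, 8.43% passed with batch as block, 6.73% higher and 1.7% lower, and 0.0253% without block.

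The trafficking list around WLS, with retromer and coat genes among others, had a median level of 10.82. Its lowest scrambled siRNA mean was 6.94, near the median of all values. Of its 14 genes 1 rose with batch as block and 0 without. SAR1A, a GTPase of the coat that exports cargo from the endoplasmic reticulum, rose by 0.22 (limma adjusted p = 0.0344 with batch as block). The call was lost without any 1 of the batches (limma adjusted p = 0.0562, 0.156 and 0.0959 without batch 1, 2 and 3) and under every other scaling tried, at differences from 0.10 to 0.19. The blocked fit with poly-A spike-ins called 0 genes of this list higher and 3 lower. Among 25 secreted or cell-surface modulators of Wnt, such as the SFRP, DKK and RSPO genes, 0 passed in either fit, while poly-A spike-in scaling with batch as block gave 2 lower. DKK1, a secreted inhibitor of the LRP co-receptors, had the smallest p with batch as block, with a difference of 0.16 at 6.16 ± 0.08 (SD, n = 3) and 6.32 ± 0.09, and SFRP1 differed by 0.11. Their limma adjusted p were 0.122 and 0.354 with batch as block, and 0.633 and 0.683 without. DKK1 lay well below the median of all values, where signals can be mostly background.

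Receptors that could receive these ligands included 4 genes that rose with batch as block, of 20 measured, and 0 fell. In that fit 6.73% of all genes rose and 1.7% fell. Over the 6 Wnt lists 11 of 115 genes passed, LEF1 included, near the 8.43% of all genes. Of the 115, 81 lay above the median level, where 11.7% of probe sets were called. RYK, a WNT5A receptor, rose by 0.37 (limma adjusted p = 0.00304), from 8.14 ± 0.22 (SD, n = 3) to 8.50 ± 0.15. It passed under all 4 other scalings and without any 1 of the batches. ROR1 and ROR2, named above with RYK, had mean levels of 6.70 and 6.31, below the median of all values. They differed by 0.09 and -0.01 and did not pass (limma adjusted p = 0.478 and 0.953 with batch as block). FZD2, also a receptor for WNT5A, rose by 0.27, FZD1 by 0.26 and FZD6 by 0.24. FZD1, FZD2 and FZD6 had mean levels of 7.13, 7.45 and 7.63 over the 6 arrays, not far above the median of all values. FZD2 was lost under poly-A spike-in scaling, FZD1 under all but quantile normalization, and FZD6 under all 4 (limma adjusted p with poly-A spike-ins = 0.0951, 0.129 and 0.197). Leaving out batch 2 ended the calls of FZD2 and FZD6 (limma adjusted p = 0.0733 and 0.382), and leaving out batch 3 that of FZD1 (0.177). Without block no receptor passed. Under poly-A spike-in scaling with batch as block the balance turned, with 1 receptor gene called higher and 2 lower.

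Inside the cell, 4 of 20 genes of the beta-catenin core and TCF/LEF list rose with batch as block, and LEF1 fell, beside 6.73% and 1.7% of all genes. APC, a scaffold of the complex that destroys beta-catenin, rose by 0.38 (limma adjusted p = 0.00348), and with batch as block it also passed under every scaling and without any 1 of the batches. TNKS and TNKS2, the tankyrases that mark axin for breakdown, rose by 0.24 and 0.26, and BCL9L, a beta-catenin co-activator gene with a mean level of 7.40, by 0.23. Without block LEF1 passed, and APC, TNKS, TNKS2 and BCL9L did not (limma adjusted p = 0.324, 0.825, 0.681 and 0.243). Scaled to the poly-A spike-ins, the blocked fit called 1 gene of the list higher and 3 lower. BCL9L missed the threshold in all 4 rescaled fits, with limma adjusted p from 0.0538 to 0.219, TNKS passed only with equal medians and TNKS2 only with cyclic loess. Without batch 2, BCL9L, TNKS and TNKS2 did not pass (limma adjusted p = 0.165, 0.213 and 0.0927), without batch 1 BCL9L and TNKS2 did not (0.133 and 0.274). TNKS2 was named in addition to the 4 genes that the rule for this list allows. Of 23 genes of beta-catenin-independent signalling 1 rose, PRICKLE1, a planar polarity gene, by 0.23 (limma adjusted p = 0.0299), which was lost under quantile normalization, cyclic loess and poly-A spike-ins (0.0798, 0.0642 and 0.198) and without batch 2 or 3 (0.208 and 0.0631). The unblocked fit did not call PRICKLE1 (limma adjusted p = 0.667). The blocked fit with poly-A spike-ins called 0 genes of its list higher and 1 lower.

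**Figure D4:**
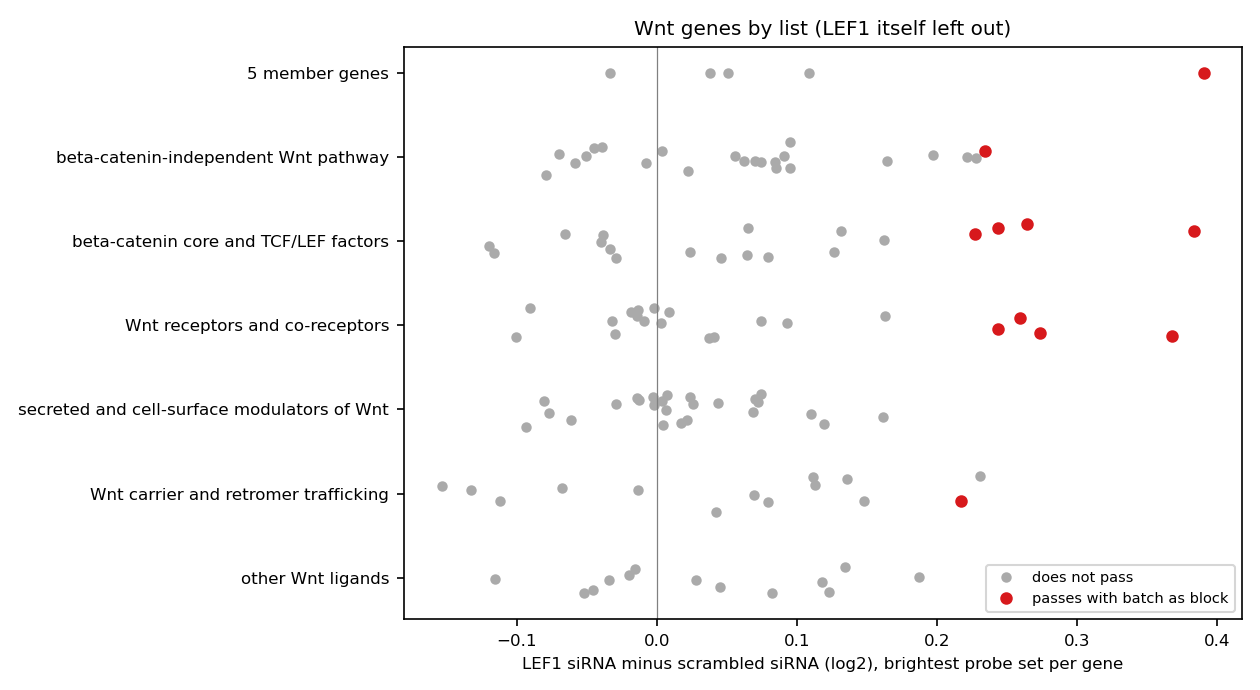
Log2 difference (x axis) of each measured gene, by its brightest probe set, in the 6 Wnt lists and the 5 member genes (y axis), with genes that pass with batch as block in red; LEF1, at -2.71, is left out. WNT5A, APC and RYK lie furthest to the right, at 0.39, 0.38 and 0.37, and 0 ligands of the list of other Wnt ligands pass.

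Markers of cell types that make Wnt ligands were set beside the WNT5A values. Of 5 stromal and epithelial markers 0 passed in either fit, and their summed linear signal ran from 672 to 737 over scrambled siRNA arrays and from 726 to 749 over LEF1 siRNA arrays, which overlap. COL1A2 read 6.92 ± 0.10 (SD, n = 3) and 7.04 ± 0.08, near the median of all values. Over the 5 markers the scrambled siRNA means ran from 6.13 to 8.02, and 4 of them had a mean level above that median. Of the 4 germinal-centre and Burkitt markers 2 fell with batch as block, MME by 0.43 and TCL1A by 0.37 (limma adjusted p = 0.000605 and 0.00503). Over all genes 1.7% fell in that fit. The groups overlapped for MME and not for TCL1A. For these 2 markers, results under other scalings or without a batch are not given here. Neither passed without block (limma adjusted p = 0.700 and 0.233), and 0 of 6 B cell markers passed in either fit. The part of these markers in the WNT5A difference was not tested.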

How the data were processed

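Expression was measured on HG-U133 Plus 2.0 arrays, with biotinylated cRNA made from 0.3 µg total RNA by a kit that starts from the 3' end, which the labels' protocols name, so mainly 3' ends are read. The deposited values are log2 expression per probe set, as read from their range of 5.45 to 14.95. Background correction, normalization and summarisation are not given in the sources used here. Of 54675 probe sets, 62 controls were left out. Gene names came from the platform annotation, and 0 symbols changed against RefSeq (GRCh38.p14).

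Differences were fitted over 54613 probe sets with limma 3.58.1 (R 4.3.3; lmFit and eBayes), two-sided, with Benjamini-Hochberg adjustment and a threshold of 0.05. The main fit has no block. The labels' batches pair the arrays, and across probe sets the 2 arrays of batches 1, 2 and 3 deviated together from their groups' means (r = 0.477, 0.493 and 0.621), so the fit with batch as block is given beside it where it changes a call. It has 2 residual and 12.0 prior degrees of freedom, against 4 and 4.07. Both fits were tested on simulated data.

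The members and lists were chosen with earlier results of these data known, so nothing is adjusted over a list alone. Every member probe set is named. From each list up to 4 genes past the threshold in either fit with the smallest p were named, or 2 as values where none passed. Each gene of a list is read by its brightest probe set. Alternatives covered the block, 4 scalings, dim probe sets, eBayes settings, and leaving out arrays or batches. Promoter windows were RefSeq's. Plots were made in Python 3.11.15 (matplotlib 3.10.9). The number of arrays limits the precision.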

Additional observations from a re-analysis of the deposited data

How the results depend on the processing

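Pairing the arrays by batch, as replicate block, moved the counts most. Probe sets called went from 10 without block to 3328, member probe sets from 0 to 2 and genes of the 6 Wnt lists from 1 to 11. Without block, all probe sets gave 23 calls after quantile normalization, 23 after cyclic loess and 6 with trend and robust eBayes, while leaving out arrays or batches gave 0 to 8, and 0 to 1 list genes. The member count stayed at 0 in each of these. With the replicate block, quantile normalization gave 3315 calls, equal medians 2788, cyclic loess 3240, poly-A spike-in scaling 8797, leaving out dim probe sets 3465, trend and robust eBayes 2938, and leaving out arrays or batches 1407 to 3880, with 3626 without batch 3 or either of its arrays. Of the calls 75.2% were higher, against 56.1% (quantile normalization), 66.4% (equal medians), 60.1% (cyclic loess) and 11% under poly-A spike-in scaling, which moved the median difference of all probe sets from 0.011 to -0.11. Member calls in the blocked settings numbered 2, except 0 without batch 2 or either of its arrays, and the 2 under poly-A spike-in scaling were the brighter WNT5A probe set, higher, and the second WLS probe set, lower. List genes numbered 5, 6, 5, 14, 11 and 10 in the same order of settings, and 4 to 13 with arrays or batches left out. The 14 under poly-A spike-in scaling were 2 higher and 12 lower, against 10 higher and 1 lower with the block alone.

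WNT5A differences were above 0 in all 31 alternatives, from 0.20 to 0.47 on the log2 scale. Many of these alternatives repeat a difference by construction, so they are not separate checks. With all arrays the block leaves a difference unchanged, and with the block leaving out 1 array equals leaving out its batch. Its adjusted p without block ranged from 0.193 to 1. With the block and all arrays it ranged from 0.00367 to 0.0703. Of 362 member values under alternatives, the same repeats included, 35 changed sign and passed in no fit, at 8 probe sets of other members. No alternative planned for these results was left out. All WLS probe sets, the third of WNT5B and the dimmer of WNT16 lie below the median of all values, which limits what they can show. The other WNT5B probe sets, the second of WNT10A and the brighter of WNT16 lie not far above it, with mean levels from 6.94 to 7.30. T cell markers reached 7.09 with scrambled siRNA, so a similar limit applies to these probe sets.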

Other observations

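The array profile of WNT10A at its brighter probe set was set against 12639 genes above the median level, a step chosen after its values were seen. The genes closest to it over the 6 centred array values were SBF1 at a root mean square distance of 0.082, ANKRD27 at 0.099 and DNAJC5 at 0.101, against a median distance of 0.279. SBF1, a myotubularin-family gene, read 9.80, 10.41 and 10.46 with scrambled siRNA and 10.17, 10.41 and 10.30 with LEF1 siRNA. Like WNT10A, these 3 genes were lowest in the scrambled siRNA array of batch 1 and highest in that of batch 3, and they did not pass with batch as block (limma adjusted p = 0.773, 0.696 and 0.863). The likeness to WNT10A by which they were picked brings this with it.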
